A study of Mus musculus with 9 samples.

Results

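The 10 genes described here build or regulate the cytoskeleton of newly formed neurons, and were followed by every probe set annotated to exactly 1 of their symbols, which gave 20 probe sets for 10 genes out of 22626 non-control probe sets and 12393 genes with a symbol. The genes were Tubb3, Dcx, Map2, Stmn2, Stmn3, Nefl, Nefm, Ina, Dpysl3 and Tagln3. RNA of whole mouse embryos at 9.5 days post coitum was measured on 9 Affymetrix arrays. Both groups called null are homozygous, for the targeted Notch1 allele tm1Con (2 arrays) or for the targeted Dll3 allele neo (2 arrays). The Dll3 heterozygous group had 2 arrays and wild type had 2, while the Notch1 heterozygous group was a single array, so that its values carry no replicate spread of their own. Notch1 encodes a receptor and Dll3 a ligand-like protein of the Notch pathway. The labels name no promoter or Cre line that would limit an allele to some cells. A C57BL/6J background is named only for replicate 1 of Notch1 null, and the labels do not say whether a sample was 1 embryo or a pool, or came from a separate litter. The p-values thus rest on the spread among these few arrays, some of which may be technical.

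A newborn neuron leaves the neural progenitor layer, stops dividing and grows an axon. Its microtubules are then built with the neuron-specific tubulin of Tubb3 and are bundled or stabilised by the proteins of Dcx and Map2, while stathmins such as those of Stmn2 and Stmn3 bind free tubulin and make microtubules more dynamic in the growth cone. Neurofilaments, assembled from the proteins of Nefl, Nefm and Ina, fill the growing axon. Dpysl3 encodes a collapsin response mediator protein of the growth cone, and Tagln3 a neuronal protein of the calponin family. Notch signalling holds neighbouring progenitors back from becoming neurons, a step that the pathway is known to control in the neural tube. Whether the values of this set in whole embryos follow that step was not tested.

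Promoter sequences were read for the members so that genes that fell together could be set beside one that did not pass the test. RefSeq windows on GRCm38.p6 matched 6 of the 10 members. Shown here are the 250 bases before the start site of Tubb3, which had the largest difference from wild type of all members, of Stmn3 and Ina, the 2 members whose window holds an E-box of the kind bound by proneural bHLH factors, and of Map2, whose probe sets did not pass the test in any comparison. Capitals mark any E-box, written CANNTG and searched on both strands.
Tubb3, chr8:123411303-123411552, plus strand: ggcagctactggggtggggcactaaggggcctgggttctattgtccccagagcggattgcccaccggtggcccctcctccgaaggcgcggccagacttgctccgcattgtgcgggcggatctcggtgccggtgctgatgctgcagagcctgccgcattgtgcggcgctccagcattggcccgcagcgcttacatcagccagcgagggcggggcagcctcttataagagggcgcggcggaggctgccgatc
Stmn3, chr2:181314501-181314750, minus strand: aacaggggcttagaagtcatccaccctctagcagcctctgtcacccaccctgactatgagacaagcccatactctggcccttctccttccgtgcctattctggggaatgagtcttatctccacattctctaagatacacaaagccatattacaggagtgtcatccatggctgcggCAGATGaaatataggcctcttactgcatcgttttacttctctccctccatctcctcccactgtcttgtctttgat
Ina, chr19:47014431-47014680, plus strand: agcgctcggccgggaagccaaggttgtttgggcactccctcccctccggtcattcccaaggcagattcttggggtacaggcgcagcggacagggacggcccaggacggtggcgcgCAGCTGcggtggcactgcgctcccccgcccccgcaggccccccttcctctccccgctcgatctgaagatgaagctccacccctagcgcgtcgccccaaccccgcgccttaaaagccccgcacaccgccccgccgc
Map2, chr1:66175079-66175328, plus strand: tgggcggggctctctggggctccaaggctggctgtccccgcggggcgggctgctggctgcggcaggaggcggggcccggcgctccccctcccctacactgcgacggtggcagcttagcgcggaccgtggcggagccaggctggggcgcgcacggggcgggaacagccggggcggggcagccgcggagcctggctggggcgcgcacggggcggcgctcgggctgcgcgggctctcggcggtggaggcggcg
An E-box CANNTG occurs in 66.2% of 32851 windows of this length, and its subset CAGCTG or CAGATG in 25.5%. Stmn3 has 1 E-box, CAGATG, ending 69 bases before the start site, and Ina has 1, CAGCTG, ending 129 bases before it. The windows of Tubb3, Dcx, Tagln3 and Map2 hold none, which says only that these letters are not in these windows. The 7 windows of the 6 members also differ in base composition, from 41.6% G and C in 1 of the 2 Dcx windows to 81.2% in Map2, against a median of 52.4% over all windows.

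The deposited values are ratios, in which each probe set was divided by 1 number of its own; for all 20 member probe sets the median over the 9 arrays is exactly 1. A ratio of 2 thus means a signal 2 times that probe set's middle array, and no ratio tells whether a transcript was abundant or even detected, or how 1 gene compares in level with another. For the same reason the labelled tissue could not be checked by the presence of its markers. Differences were tested as log2 ratios with limma over all non-control probe sets, and a difference is said to have risen or fallen where the Benjamini-Hochberg adjusted p was under 0.05. In whole embryos fewer neurons and less RNA per neuron cannot be told apart.

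Some facts about the arrays stand beside every result. The targeted genes were read first. Notch1 was 1.63-fold higher in Notch1 null at 1 of its 2 probe sets (adjusted p = 0.0138), and Dll3 was 1.21-fold lower in Dll3 null (adjusted p = 0.486). No source used here says whether these probes lie in deleted sequence, so they check nothing. The dap probe sets, made for a bacterial control RNA, had mean ratios of 0.382 to 0.421 in the Dll3 arrays, 1 in Notch1 het, 2.68 to 5.41 in Notch1 null and 7.07 to 9.91 in wild type. By Xist and Y-linked genes, replicate 1 of each of the 4 groups with a targeted allele looked female, and the remaining 5 arrays looked male. The part of either in the results was not tested except by the fit with embryo sex given below.

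As a mean over the 10 genes, the members fell into 3 levels across the 9 arrays. Averaged over the 10 genes, the mean log2 ratio of wild type was 0.48 and 0.33, and the mean was 0.08 and 0.11 in Dll3 het, 0.17 and -0.05 in Dll3 null, -0.48 in Notch1 het and -0.68 and -0.50 in Notch1 null. The wild-type arrays were highest, the Dll3 arrays lay between, and the 3 arrays with a targeted Notch1 allele were lowest with no overlap between these levels. The dap control ratios were likewise highest in wild type, and were lowest in the Dll3 arrays; their part in the level of the members was not tested. Of the 20 probe sets, 9 had both wild-type arrays above the 7 others, as had 6.77% of all probe sets. The 3 Notch1 arrays lay below the 6 others for 13, as for 8.04% of all probe sets. Both patterns held together for 7 of 20, as for 1.22% of all, so most single probe sets did not show the 3 levels. The members were chosen with earlier results of these data known, so their shares, here and below, are a description.

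**Figure D1:**
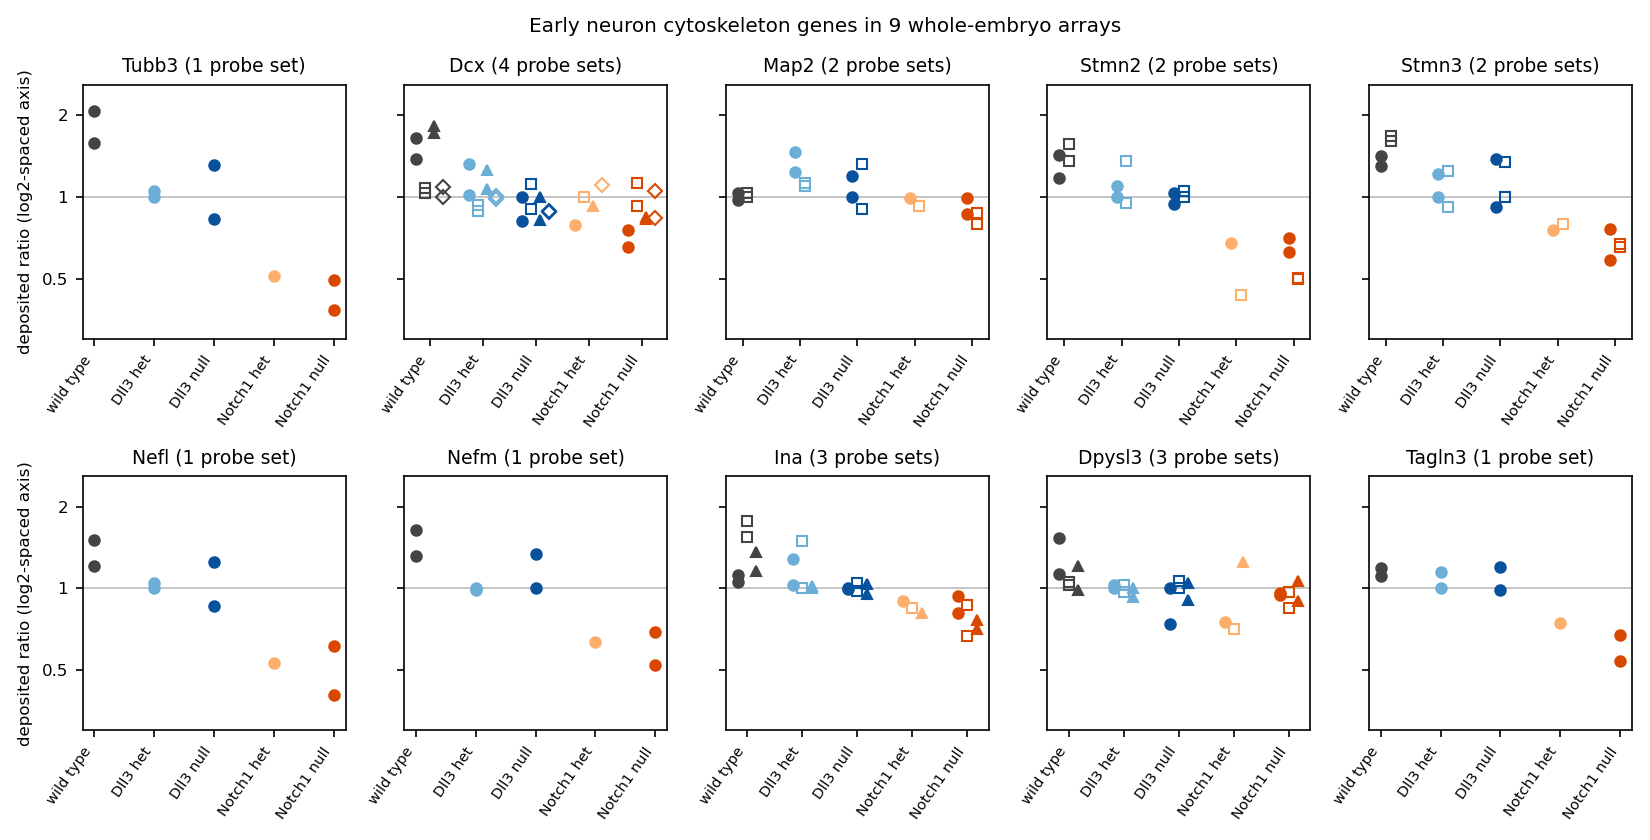
Deposited ratio (vertical, log-spaced axis, 1 is the median array of a probe set) of each member gene by genotype group (horizontal); each point is 1 array at 1 probe set, and different symbols in a panel are different probe sets of the gene. Tubb3 runs from 2.08 in wild type to 0.382 in Notch1 null, while the Map2 probe sets stay between 0.793 and 1.46.

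The first comparison sets Notch1 null against wild type and asks how the set stands when both copies of the receptor gene are targeted. Of 20 probe sets 12 fell, 0 rose and 8 did not pass, while 5.99% of all probe sets fell and 3.46% rose. The 12 belong to 8 genes: Tubb3, Dcx, Stmn2, Stmn3, Nefl, Nefm, Ina and Tagln3. The median log2 difference of the members was -0.95, against -0.03 over all probe sets, and all 20 differences were below 0. The arrays of both groups did not overlap for 16 probe sets, lower in Notch1 null, as for 34% of all probe sets.

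The tubulin gene Tubb3 stood furthest apart. It read 2.08 and 1.58 in wild type, 1.05 and 1 in Dll3 het, 1.32 and 0.826 in Dll3 null, 0.513 in Notch1 het and 0.382 and 0.492 in Notch1 null. Every Notch1 array lay below every other array, and wild type was highest in both of its arrays. Tubb3 fell 4.19-fold in Notch1 null (log2 -2.07 ± 0.22 SE, n = 2 and 2, limma adjusted p = 0.00165). Its call held in the 20 alternatives, which were not 20 separate tests. A looser threshold could not end the call, and the fit without the Notch1 het array gave the main result again. The fit of both groups alone and that of the wild-type and Notch1 arrays gave the same values. Leaving out either replicate of a Dll3 group also gave equal values. With 1 array of either compared group left out, the log2 difference ran from -2.26 to -1.87.

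Both stathmin genes fell at every probe set. Stmn2 at probe set 1423281_at read 1.57 and 1.36 in wild type, 1.36 and 0.947 in Dll3 het, 1.05 and 1 in Dll3 null, 0.435 in Notch1 het and 0.499 and 0.501 in Notch1 null. The Notch1 null arrays were nearly equal here, and the Notch1 het array was the lowest of the 9. This probe set fell 2.92-fold (log2 -1.55 ± 0.16, adjusted p = 0.0016) and the other, 1423280_at, 1.95-fold (log2 -0.96 ± 0.13, adjusted p = 0.00409). Stmn3, whose product like that of Stmn2 binds tubulin dimers, read 1.68 and 1.61 in wild type, 1.24 and 0.919 in Dll3 het, 1.35 and 1 in Dll3 null, 0.792 in Notch1 het and 0.652 and 0.669 in Notch1 null at 1460181_at. Again the wild-type arrays were above and the Notch1 arrays below all others. It fell 2.49-fold (log2 -1.32 ± 0.17, adjusted p = 0.0035) there and 2.04-fold at 1435113_x_at (log2 -1.03 ± 0.20, adjusted p = 0.0152). The suffix of the latter marks probes that can match other transcripts too, and its call ended in 5 of 20 alternatives, among them those without Notch1_null replicate 2, wild_type replicate 1 or wild_type replicate 2 (adjusted p up to 0.135 over all alternatives).

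The neurofilament genes fell together. Nefl, the light chain, read 1.51 and 1.22 in wild type, 1 and 1.05 in Dll3 het, 1.26 and 0.862 in Dll3 null, 0.532 in Notch1 het and 0.403 and 0.612 in Notch1 null. The wild-type and Dll3 null arrays overlapped, while the 3 Notch1 arrays lay apart below. Nefl fell 2.72-fold in Notch1 null (log2 -1.45 ± 0.22, adjusted p = 0.00638). Nefm, the medium chain, read 1.64 and 1.32 in wild type, 1 and 0.987 in Dll3 het, 1.34 and 1 in Dll3 null, 0.634 in Notch1 het and 0.523 and 0.693 in Notch1 null, and fell 2.44-fold (log2 -1.29 ± 0.18, adjusted p = 0.00447). As for Nefl, Dll3 null replicate 1 lay above wild_type replicate 2. Without wild_type replicate 1 the Nefl call ended (adjusted p = 0.0592).

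Ina, which encodes internexin, the neurofilament protein made early in neurons, differed between its 3 probe sets. At 1448991_a_at it read 1.77 and 1.55 in wild type, 1 and 1.5 in Dll3 het, 1.05 and 0.976 in Dll3 null, 0.850 in Notch1 het and 0.666 and 0.871 in Notch1 null. It fell there 2.17-fold (log2 -1.12 ± 0.19, adjusted p = 0.01) and at 1448992_at 1.71-fold (log2 -0.77 ± 0.12, adjusted p = 0.00602), while 1418178_at had a log2 difference of -0.32 ± 0.13 (adjusted p = 0.175). The first of these calls ended without Notch1_null replicate 1 and without either wild-type array (adjusted p up to 0.0775 over all alternatives), and the second without Notch1_null replicate 2 (adjusted p = 0.0628).

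Dcx, the microtubule protein of migrating neurons, split by probe set. At 1418141_at it read 1.72 and 1.83 in wild type, 1.07 and 1.25 in Dll3 het, 0.825 and 1 in Dll3 null, 0.928 in Notch1 het and 0.828 and 0.846 in Notch1 null. Here the wild-type arrays stood alone above, and the Dll3 null arrays overlapped the Notch1 arrays. Dcx fell 2.12-fold at this probe set (log2 -1.08 ± 0.13, adjusted p = 0.00262) and 2.14-fold at 1418139_at (log2 -1.10 ± 0.17, adjusted p = 0.00606). The latter call ended without wild_type replicate 1 (adjusted p = 0.0543). The other Dcx probe sets, 1418140_at and 1448974_at, had log2 differences of -0.05 ± 0.14 and -0.15 ± 0.13 and did not pass (adjusted p = 0.889 and 0.537). Averaged over its 4 probe sets Dcx fell in Notch1 null (log2 -0.60 ± 0.10, adjusted p = 0.00617) but did not pass in Notch1 het (log2 -0.47 ± 0.12, adjusted p = 0.0770) or Dll3 null (log2 -0.51 ± 0.10, adjusted p = 0.153).

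Tagln3 read 1.19 and 1.11 in wild type, 1 and 1.15 in Dll3 het, 1.2 and 0.984 in Dll3 null, 0.743 in Notch1 het and 0.538 and 0.675 in Notch1 null. Wild-type and Dll3 arrays were interleaved, so that for this gene only the Notch1 arrays stood apart. It fell 1.91-fold in Notch1 null (log2 -0.94 ± 0.15, adjusted p = 0.00713), and the call ended without either wild-type array (adjusted p up to 0.0571).

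Map2 and Dpysl3 did not pass at any probe set. Map2, the microtubule-associated protein of dendrites, read 1.04 and 0.972 in wild type, 1.46 and 1.23 in Dll3 het, 1 and 1.19 in Dll3 null, 0.991 in Notch1 het and 0.864 and 0.987 in Notch1 null at 1421327_at, where Dll3 het was highest. Its log2 differences in Notch1 null were -0.12 ± 0.13 and -0.29 ± 0.16 (adjusted p = 0.666 and 0.330). Dpysl3 read 1.13 and 1.53 in wild type, 1.03 and 1 in Dll3 het, 0.742 and 1.01 in Dll3 null, 0.755 in Notch1 het and 0.943 and 0.960 in Notch1 null at 1415877_at. Its lowest arrays were Dll3 null replicate 1 and Notch1 het, not Notch1 null. The log2 differences of its 3 probe sets in Notch1 null were -0.47 ± 0.17, -0.20 ± 0.11 and -0.16 ± 0.14, with adjusted p from 0.133 to 0.565. The 95% intervals reached from -0.65 to 0.18 for the Map2 probe sets and from -0.86 to 0.16 for those of Dpysl3, so the data do not show that either gene kept its level.

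Leaving out single arrays changed how many members fell. Of the 12 calls, 7 were kept without wild_type replicate 1, 9 without wild_type replicate 2, 10 without Notch1_null replicate 2 and 11 without Notch1_null replicate 1. The share of all probe sets that fell dropped to 1.44%, 1.04%, 0.804% and 2.05% in these fits. With embryo sex in the fit, all 12 member probe sets still fell.

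**Figure D2:**
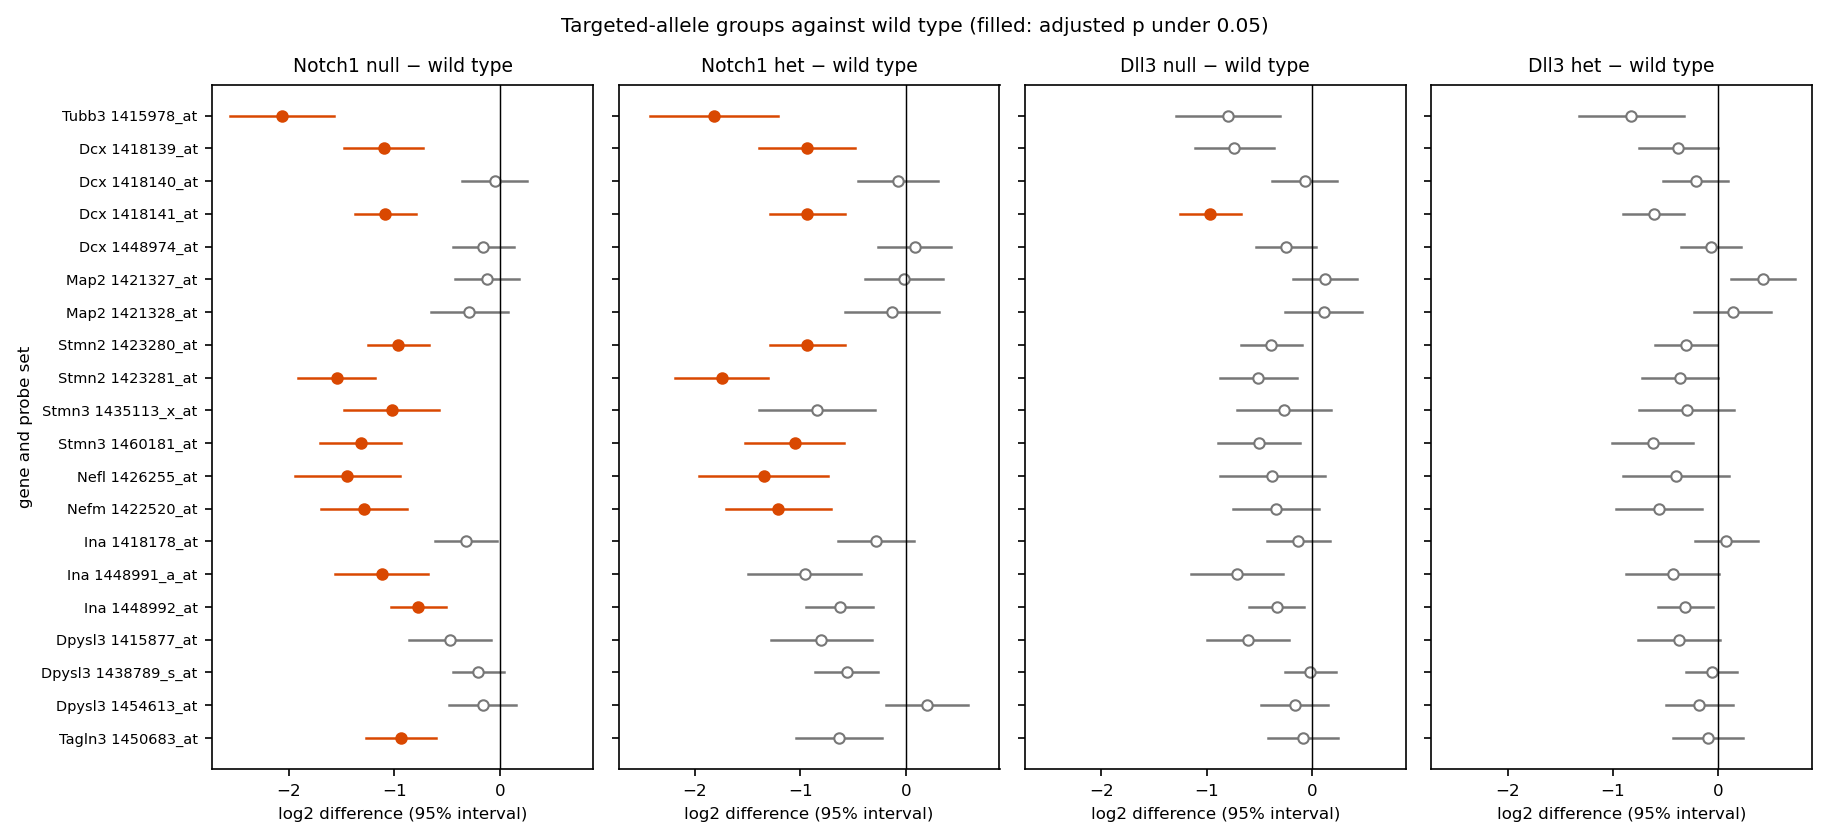
Log2 difference from wild type (horizontal, with its 95% interval from limma) for each of the 20 member probe sets (vertical) in Notch1 null, Notch1 het, Dll3 null and Dll3 het; filled points have an adjusted p under 0.05. Filled points number 12, 8, 1 and 0 from left to right, and Tubb3 has the lowest value in both Notch1 panels, at -2.07 and -1.82.

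The Notch1 heterozygous array was compared with wild type to ask whether 1 targeted copy of the receptor gene goes with the same change. Of 20 probe sets 8 fell and 0 rose, while 1.77% of all probe sets fell and 0.99% rose. Tubb3 fell 3.54-fold (log2 -1.82 ± 0.27 SE, n = 1 and 2, limma adjusted p = 0.0173), Stmn2 3.36-fold and 1.91-fold at its 2 probe sets, Nefl 2.54-fold, Nefm 2.32-fold, Stmn3 2.08-fold at 1460181_at, and Dcx 1.91-fold at each of 1418139_at and 1418141_at. The largest of these adjusted p was 0.0468, for Dcx 1418139_at. Ina had log2 differences of -0.96 ± 0.24 and -0.63 ± 0.14 at the probe sets that fell in Notch1 null and did not pass (adjusted p = 0.0672 and 0.0519), nor did Tagln3 (log2 -0.63 ± 0.18, adjusted p = 0.0985).

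Dpysl3 had log2 differences from wild type of -0.80 ± 0.21, -0.56 ± 0.13 and 0.20 ± 0.17 at its 3 probe sets and did not pass (adjusted p = 0.0803, 0.0606 and 0.607). The median log2 difference of the members was -0.82, against 0.005 over all probe sets. This comparison rests on 1 array of a female pattern against 2 of a male pattern. With embryo sex in the fit 1 member fell, Stmn2 at 1423281_at, and 36 probe sets were called in all, against 624 without it. Without either wild-type array 0 members and 0 of all probe sets passed; in that fit a lone array stands on each side, assumed to vary like the other groups. At an unadjusted p under 0.05, 14 of 20 member probe sets and 19.4% of all probe sets passed with all arrays.

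Notch1 null and Notch1 het were compared directly to ask whether the second targeted copy went with a further change. By limma 0 of 20 member probe sets differed, and 1 had an unadjusted p under 0.05, Dpysl3 1438789_s_at, as had 17.1% of all probe sets, while 0.928% of all probe sets were lower and 0.853% higher in Notch1 null. The difference was below 0 for 16 probe sets and above 0 for 4, with a median of -0.15. For Tubb3 the 95% interval ran from -0.85 to 0.36 on the log2 scale, for Nefm from -0.57 to 0.42 and for Stmn2 1423281_at from -0.24 to 0.64. The bound lowest of all, -0.85, was that of Tubb3, and the highest, 0.81, was that of Dpysl3. Differences within these bounds between the homozygous and heterozygous arrays could not be told from 0. Only at Dpysl3 1438789_s_at did the interval, which is not adjusted for the number of tests, leave out 0. It ran from 0.06 to 0.66, and this probe set did not pass after adjustment.

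Dll3 null was compared with wild type in the same way, to ask whether the ligand allele goes with a change in these genes. Of 20 probe sets 1 fell, Dcx at 1418141_at (1.95-fold, log2 -0.97 ± 0.13 SE, n = 2 and 2, limma adjusted p = 0.0403), while 0.0707% of all probe sets fell and 0.0177% rose. The other log2 differences ran from -0.80 ± 0.22 for Tubb3 (adjusted p = 0.276) to 0.12 ± 0.13 for Map2 1421327_at (adjusted p = 0.819), and 9 of 20 probe sets had an unadjusted p under 0.05, as had 10.2% of all. The median was -0.34, against 0.01 over all probe sets. The Dcx call ended without either wild-type array, without Dll3_null replicate 1, without either Dll3 het or Notch1 null array and with only both groups in the fit. It also ended with embryo sex in the fit and after quantile normalization. The other Dcx probe set that fell in Notch1 null, 1418139_at, had a log2 difference of -0.74 ± 0.17 in Dll3 null (adjusted p = 0.179).

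Dll3 het had 0 members called against wild type by limma, with 9 of 20 at an unadjusted p under 0.05 against 16% of all probe sets, while 0.301% of all probe sets fell and 0.186% rose. Its lowest log2 differences were -0.83 ± 0.22 for Tubb3 (adjusted p = 0.116), -0.62 ± 0.17 for Stmn3 1460181_at (adjusted p = 0.123) and -0.62 ± 0.13 for Dcx 1418141_at (adjusted p = 0.0675). Map2 1421327_at lay above wild type in both arrays (log2 0.42 ± 0.13, adjusted p = 0.173). The 4 comparisons above share the wild-type arrays, so a wild-type array that is high for a gene lowers all 4 differences. All 4 are also differences between arrays with lower and higher dap ratios. The dap ratios were 7.07 and 9.91 in wild type, up to 5.41 in Notch1 null, 1 in Notch1 het and up to 0.421 in the Dll3 arrays. Further control probe sets, thr, lys and phe, were likewise highest in both wild-type arrays, while cre was not. The part of these controls in the differences was not tested.

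A further 3 comparisons use no wild-type array. Dll3 null and Dll3 het did not differ at any member by limma, with 0 of 20 called, 0% of all probe sets called and 1 member, against 5.31% of all probe sets, at an unadjusted p under 0.05, Dcx 1418141_at (log2 -0.35 ± 0.13, adjusted p = 0.897). The 95% interval ran from -0.47 to 0.52 for Tubb3 and from -0.48 to 0.52 for Nefl. Of the 20 differences 11 were below 0 and 9 above. The comparison of Notch1 null with Notch1 het is the second of these and was given above.

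The third sets Notch1 null against Dll3 null and asks whether receptor and ligand alleles differ for these genes. Of 20 probe sets 7 were lower in Notch1 null and 0 higher, while 3.27% of all probe sets were lower and 2.46% higher. Tubb3 was 2.40-fold lower (log2 -1.27 ± 0.22 SE, n = 2 and 2, limma adjusted p = 0.0145), Nefl 2.10-fold, Stmn2 2.05-fold and 1.49-fold at its 2 probe sets, Nefm 1.93-fold, Tagln3 1.80-fold and Stmn3 1.76-fold at 1460181_at. For Dcx the difference was -0.36 ± 0.17 and -0.12 ± 0.13 at the probe sets that fell from wild type in Notch1 null, and did not pass (adjusted p = 0.264 and 0.686). For the latter, Dcx 1418141_at, the 95% interval of the difference ran from -0.41 to 0.17. The 3 Ina probe sets had differences of -0.19 ± 0.13, -0.41 ± 0.19 and -0.44 ± 0.12 (adjusted p from 0.0602 to 0.478). Without either Notch1 null array, and without Dll3_null replicate 1, 0 members passed, and 7 passed without Dll3_null replicate 2. With only both groups in the fit 0 members and 9 of all probe sets were called.

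**Figure D3:**
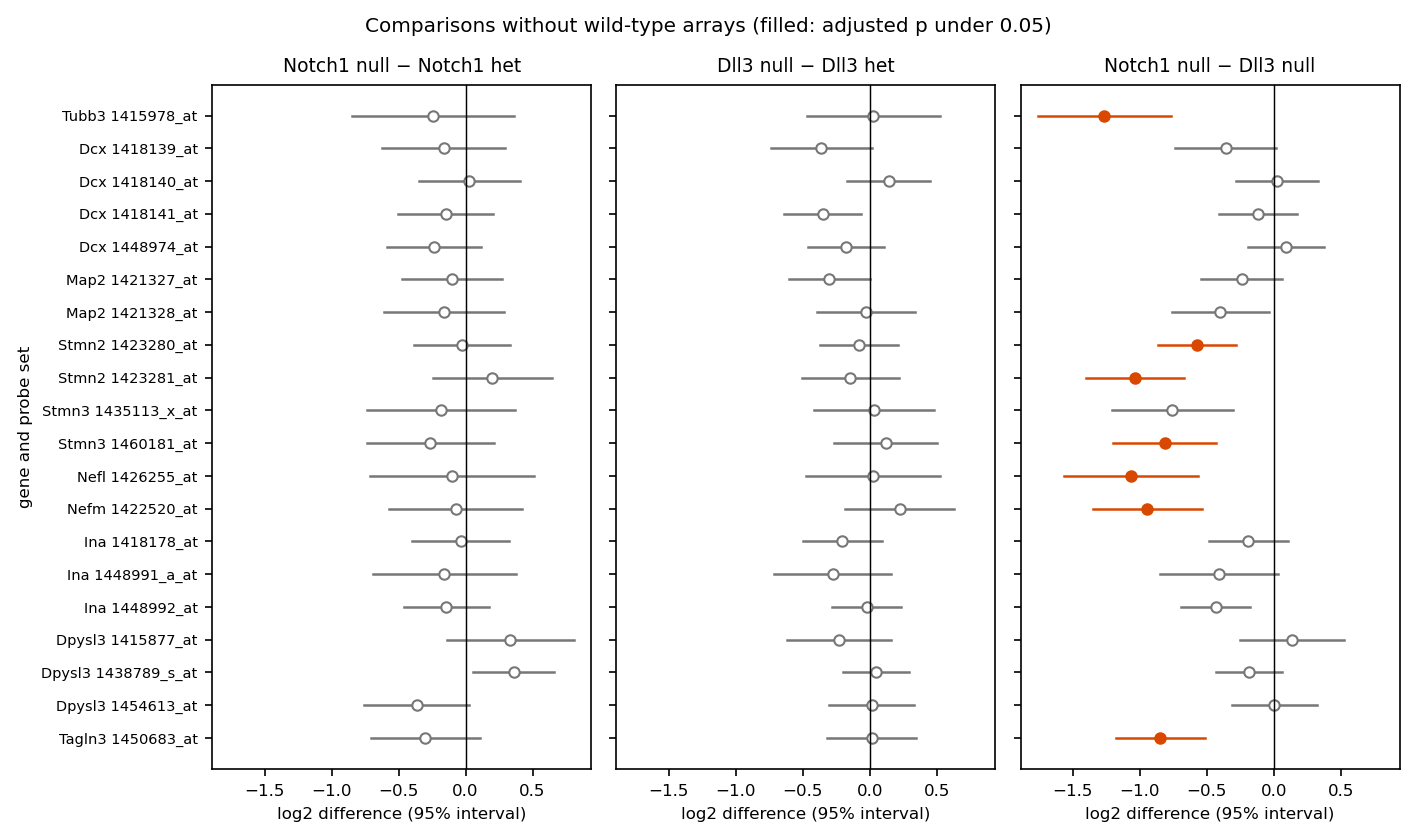
Log2 difference (horizontal, with its 95% interval from limma) for each of the 20 member probe sets (vertical) between Notch1 null and Notch1 het, Dll3 null and Dll3 het, and Notch1 null and Dll3 null; filled points have an adjusted p under 0.05. The first 2 panels have 0 filled points and the third has 7, all below 0.

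The order of the group means differed between members. At every Ina and Stmn2 probe set Dll3 het lay above Dll3 null, and at Map2 1421327_at Dll3 het was highest. For Tubb3, Nefl and Nefm the order from high to low was wild type, Dll3 null, Dll3 het, Notch1 het and Notch1 null. The differences between both Dll3 groups, between both Notch1 groups, and between either Dll3 group and wild type did not pass for these 3 genes. For Stmn2 1423281_at Notch1 het was below Notch1 null, with a difference of 0.20 ± 0.20 that did not pass (adjusted p = 0.690). As a description over 9 arrays, the correlation of a gene with the mean of the other 9 members was 0.99 for Tubb3, 0.98 for Nefl, 0.97 for Stmn2 and Nefm, 0.94 for Stmn3 and Tagln3, 0.92 for Ina, 0.78 for Dcx, 0.74 for Dpysl3 and 0.43 for Map2. The 9 arrays share their genotype groups, so the points are not independent. Outside the set, the genes whose profile was most like the mean of the members were Thoc6 (Pearson 0.985 over the 9 arrays), Tcf19, Anapc15, Rpp25l and Fabp7 (0.974). Of these 5, Fabp7, whose product carries fatty acids in radial glia, spanned the widest range, from log2 -1.73 to 0.67.

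Other genes of the same protein families were taken from a list and tested with probe sets of a gene averaged. In that fit 8.35% of 12393 genes fell and 3.76% rose in Notch1 null. The list was chosen with earlier results of these data known, so its share beside that of all genes is a description. Of 35 measured relatives 5 (14.3%) fell and 0 rose, with a median log2 difference of -0.16 against -0.03 over all genes. The tubulins Tubb2b (1.80-fold lower, log2 -0.85 ± 0.12 SE, adjusted p = 0.00303), Tuba1a (1.38-fold lower) and Tubb2a (1.44-fold lower), which dividing and postmitotic neural cells express, fell, as did Tubg1, the tubulin of centrosomes (1.69-fold lower), and Dpysl4, a relative of Dpysl3 (1.80-fold lower, adjusted p = 0.00177). Broadly expressed relatives gave log2 differences of -0.56 ± 0.22 for Tubb5, 0.08 ± 0.10 for Tubb6, -0.32 ± 0.10 for Stmn1 (adjusted p = 0.0703), 0.01 ± 0.10 for Map4 and 0.26 ± 0.10 for Tagln2, and did not pass. Among neuronal relatives that did not pass were Nefh, the heavy neurofilament chain (log2 0.14 ± 0.12), Prph, of peripheral neurons (0.09 ± 0.11), Mapt, the axonal protein tau (0.02 ± 0.10), Map1b (-0.20 ± 0.11), Stmn4 (-0.05 ± 0.09), Crmp1 (-0.34 ± 0.14) and Dpysl5 (-0.22 ± 0.10). Counted by probe set, 9 of 81 (11.1%) fell, as did 5.99% of all probe sets, and 2 of the 3 Dpysl4 probe sets were among those called.

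Genes of neurons and of their progenitors were counted in 4 further lists, beside the 8.35% of all genes that fell in Notch1 null. The lists were chosen with earlier results of these data known. A share above that of all genes is thus a description and not a test. Of 45 early neuron regulators 15 (33.3%) fell and 0 rose, with a median log2 difference of -0.21. They included Neurog2, a proneural factor (2.06-fold lower, log2 -1.04 ± 0.11 SE, adjusted p = 0.000877), Hes6, an antagonist of Hes repressors (1.83-fold lower), Elavl4, a neuronal RNA-binding protein (1.78-fold lower), and Id1 (1.58-fold lower), which inhibits bHLH factors and so acts against neuron formation. Of 51 axon growth and transport genes 9 (17.6%) fell and 3 rose, with a median of -0.08. Fez1, a kinesin adaptor (2.51-fold lower, log2 -1.33 ± 0.11), Gpm6b (1.86-fold lower), the neuronal ubiquitin hydrolase gene Uchl1 (1.63-fold lower) and Marcksl1 (1.49-fold lower) had the lowest p, and the guidance genes Nrp2, Plxna3 and Sema6d were those that rose, by log2 0.64, 0.50 and 0.64. Of 44 synapse and excitability genes 4 (9.09%) fell and 0 rose, a share near that of all genes: Syt11 (1.75-fold lower), Chgb (1.47-fold lower), Chrna3 (1.35-fold lower) and Chga (1.32-fold lower), with a median of -0.04, close to that of all genes. Of 36 neural progenitor genes 10 (27.8%) fell and 2 rose, among them Hes5, a Notch target (2.71-fold lower, adjusted p = 0.000185), Fabp7 (3.95-fold lower), Pou3f3 (2.04-fold lower) and Sox3 (1.64-fold lower). The list's median was -0.15, and its genes that rose were Otx2 and Notch1 itself. Notch1 is the targeted gene, and by limma only 1 of its 2 probe sets passed alone (adjusted p = 0.0138 and 0.142). Whether these lie in deleted sequence is not stated in any source used here. These lists thus held genes of progenitors as well as of neurons, and their share in the lower level of the members was not tested.

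In Notch1 het 4 of the early neuron regulators fell, Neurog2, Ebf1, Elavl4 and Id1, as did 4 progenitor genes, Hes5, Fabp7, Pou3f3 and Ckb, while 1 relative, Tubb2b (2.10-fold lower), and 1 synapse gene, Chgb, fell. Nrp2 and Plxna3 of the axon list and Gbx2 of the progenitor list rose. Elavl4 passed only with its probe sets averaged, and at no single probe set. These Notch1 het calls, and those in the marker lists below, rest on 1 array of a female pattern against 2 of a male pattern. They were not refitted with embryo sex. Over all genes 1.53% fell and 0.718% rose there. In Dll3 null 0 genes of the 5 lists passed by limma, with 2 of 35 relatives, 10 of 51 axon genes, 4 of 45 regulators, 6 of 44 synapse genes and 6 of 36 progenitor genes at an unadjusted p under 0.05, against 9.34% of all genes. In Dll3 het 1 of the 35 relatives fell, Tubb2b (1.87-fold, log2 -0.90 ± 0.12, adjusted p = 0.0447), and 0 genes of the other lists passed. Over all genes 0.0888% fell and 0.0242% rose in Dll3 het.

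**Figure D4:**
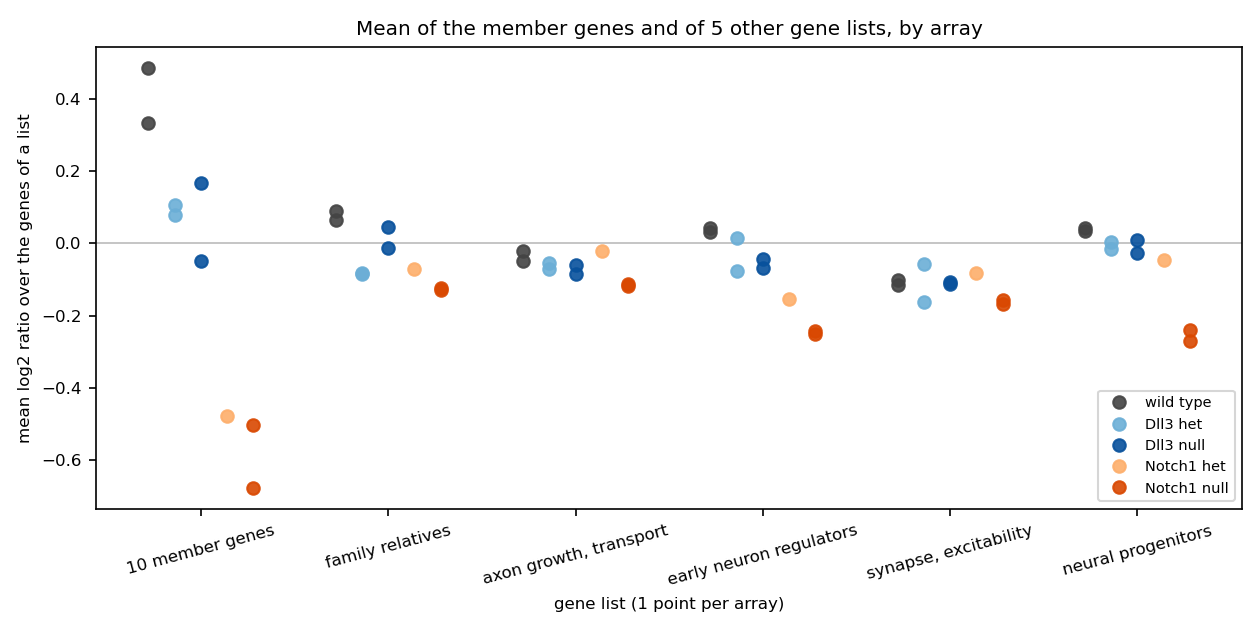
Mean log2 ratio (vertical) over the 10 member genes and over the measured genes of 5 other lists (horizontal), with 1 point per array coloured by genotype group. The members span from -0.68 to 0.48, and each other list spans less; both Notch1 null arrays are lowest in each list except the synapse genes, where a Dll3 het array at -0.16 lies between them.

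Markers of other tissues moved with the Notch1 null arrays as well, where 8.35% of all genes fell and 3.76% rose. These marker lists, too, were chosen with earlier results of these data known. Of 9 somite and paraxial mesoderm genes 6 fell, and their mean was -0.54 and -0.40 in Notch1 null against -0.22 to 0.24 in the other arrays. Of 7 surface ectoderm genes 4 rose, with means of 0.34 and 0.42 against -0.17 to 0.03, and of 11 heart muscle genes 2 rose, with means of 0.17 and 0.30 against -0.17 to -0.01. Of 8 neural crest and glia genes 1 fell and 1 rose, of 8 endothelial genes 2 rose and of 9 yolk sac and gut endoderm genes 1 rose. By limma 0 of 6 sensory ganglion and placode genes and 0 of 7 red cell genes passed. At an unadjusted p under 0.05 these were 1 and 0, against 25.9% of all genes. The part of these tissue differences in the level of the members was not tested. In Notch1 het, Pax3 of the 9 somite genes (2.35-fold lower) and Tfap2b of the 8 neural crest genes (1.71-fold lower) fell. Of the 11 heart genes Myl2 (1.64-fold lower) and Nppa (1.78-fold lower) fell. The cadherin gene Cdh5 of the 8 endothelial genes (1.73-fold higher) rose. Over all genes 1.53% fell and 0.718% rose there. Differences lay below 0 for 6 somite, 5 heart, 4 neural crest and 2 endothelial genes. They lay above 0 for 3, 6, 4 and 6 of these. The mean of the Notch1 het array was -0.17 for heart muscle genes, below the 6 wild-type and Dll3 arrays (-0.14 to -0.01), and 0.17 for endothelial genes, above them (-0.11 to 0.055). For the other 6 marker lists it lay within the range of those 6 arrays, at -0.08 for somite, -0.04 for surface ectoderm, 0.02 for neural crest, -0.04 for sensory ganglion, -0.18 for red cell and 0.19 for endoderm genes. The part of these differences in the Notch1 het values of the members was not tested either.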

How the data were processed

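Total RNA of 9 whole-embryo samples was hybridised to Affymetrix arrays, per the labels' protocols. RMA, a method that corrects background, normalizes and summarises probes, is named in the submitters' processing notes with no version. The deposited values are linear ratios: the median over the arrays is exactly 1 for 87.5% of all probe sets and above 1 for 0, so each was divided by a number of its own, a step that no source used here states. No filter by level was therefore possible. Ratios were taken as log2 with no pseudocount, 64 control probe sets were set aside, and 22626 were fitted in R 4.3.3 by limma 3.58.1 with a mean for each genotype and moderated variances (4 residual and 5.42 prior degrees of freedom; all 9 arrays). The Benjamini-Hochberg adjustment ran over all probe sets in each of 7 comparisons. The small number of arrays limits the precision. Probe sets were named by the platform annotation, where 20380 have 1 symbol, 691 several and 1555 none; 0 probe sets name a member together with another gene, and 0 symbols were changed by RefSeq (GRCm38.p6).

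Members, gene lists and marker lists were chosen with earlier results of these data known. Named are all member probe sets, the 4 genes of lowest p per list in Notch1 null against wild type, and the 5 genes with the profile most like the mean of the members; further genes of a list are named where they were called or were family relatives, after their values were seen. Alternatives were quantile normalization, median centring, log2(value + 1), fits of fewer arrays, replicate number as a block, robust and weighted fits, embryo sex, thresholds of 0.01 and 0.1, each array left out in turn, and probe sets averaged by gene. Replicate numbers did not pair the samples: correlations of replicate differences between groups ran from -0.10 to 0.16.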

Additional observations from a re-analysis of the deposited data

Results flagged for a closer look

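By a direct test, 7 of 20 member probe sets differed between Notch1 null and Dll3 null, all lower in Notch1 null. Over all probe sets 3.27% were lower and 2.46% higher. After quantile normalization 3 member probe sets were called, and with only both groups in the fit 0 were. The calls also ended without either Notch1 null array and without Dll3_null replicate 1. The log2 differences between Notch1 null and Dll3 null were -1.27 for Tubb3, -0.57 and -1.04 for the 2 probe sets of Stmn2, -0.81 for Stmn3 at 1460181_at, -1.07 for Nefl, -0.95 for Nefm and -0.85 for Tagln3. The Dll3 arrays had dap control ratios of 0.382 to 0.421 and the Notch1 null arrays 5.41 and 2.68, and the part of that in these differences was not tested.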

How the results depend on the processing

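Of the members against wild type, none changed direction in a comparison where it was called, under any alternative run. The 12 calls in Notch1 null numbered 11 after quantile normalization, 10 at an adjusted p under 0.01 and 12 in the other fits of all arrays or of fewer groups, and from 7 to 12 when 1 array was left out; over all probe sets 2139 calls became 969 after quantile normalization and 306 without Notch1_null replicate 2. The 8 calls in Notch1 het, which rest on 1 array, were 3 after quantile normalization, 4 among the 5 wild-type and Notch1 arrays, 1 with embryo sex as covariate, 0 at an adjusted p under 0.01, 13 at an adjusted p under 0.1 and from 0 to 7 when 1 array was left out. The 1 call in Dll3 null was 0 after quantile normalization, with only the 2 groups, with the replicate block, with embryo sex and at an adjusted p under 0.01, and from 0 to 1 when 1 array was left out. In Dll3 het the 0 calls became 1 at an adjusted p under 0.1. The 7 calls between both null groups were 3 after quantile normalization, 0 with only the 2 groups, 0 at an adjusted p under 0.01 and from 0 to 7 when 1 array was left out. Dll3 null and Dll3 het, and Notch1 null and Notch1 het, gave 0 calls in each alternative. With the replicate block the calls were 12 in Notch1 null, 6 in Notch1 het, 0 in Dll3 null and 6 between both null groups. Why counts moved was not tested, beyond there being fewer arrays in the smaller fits. With probe sets averaged by gene, the member genes called numbered 8 in Notch1 null (8 by single probe sets), 5 in Notch1 het (6), 0 in Dll3 null (1) and 6 between both null groups (6). No level over background is kept in the values, so dim probe sets could not be told from bright ones.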
